A study of Mus musculus with 20 samples.

Results

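AP-1 is a family of transcription factors made of FOS and JUN proteins in pairs, and 10 genes of this family and of its immediate early neighbours were followed here. They are Fos, Fosl1 and Fosl2 of the FOS family, Jun, Junb and Jund of the JUN family, the related bZIP factor gene Atf3, the zinc finger factor gene Egr1, and the feedback and stress genes Dusp1 and Ier3. The members were chosen by symbol, with earlier results of these data known, and all 10 were found among the 23373 Entrez gene IDs of the count table. All 10 also passed the filter on low counts that left 14343 genes for testing.

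The study grew mouse Hepa-1 cells, an established hepatoma line, with or without hexavalent chromium, Cr(VI), and asked how this changed the messenger RNA response to the combustion product benzo[a]pyrene, B[a]P. RNA-seq gave 20 libraries in 10 groups of 2. At passage 25 the groups were Cr(VI)-grown, recovered and control-grown cells, where recovered cells had 20 passages with Cr(VI) followed by 5 passages without it. At passage 20 the groups were Cr(VI)-grown and control-grown cells. Each of these 5 growth histories received B[a]P or its solvent DMSO over 8 hours, so that the DMSO libraries are the control for B[a]P in every history. The labels give 0.5 mM of Cr(VI) and 5 mM of B[a]P, but the unit of both is uncertain, because the series title calls the Cr(VI) concentrations low and a lost micro sign would make both values micromolar. Hepa-1 is a single tumour-derived line, and hepatocyte markers were present in part. Alb and Trf were abundant, with medians over the libraries of 1581 and 1224 CPM (counts scaled to a common library size), while the hepatocyte factor gene Hnf4a had a median of 0.0856 CPM and the apolipoprotein genes Apoa1 and Apob had medians of 0.0 and 0.0707 CPM.

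Immediate early genes are switched on within minutes of a stimulus without new protein synthesis, mostly through MAP kinases acting on factors already bound to their promoters. FOS proteins cannot pair with each other and need a JUN partner, whereas JUN proteins also pair among themselves, and the pairs bind AP-1 sites in the regulatory DNA of genes for growth, stress defence and invasion. Part of the response is brief because some of the induced genes, Dusp1 among them, switch the kinases off again. B[a]P is a ligand of the aryl hydrocarbon receptor (AHR), whose own target site is the xenobiotic response element, and its oxidised metabolites bind DNA.

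The promoters of 4 members are shown, because Fos and Jun were higher with B[a]P in all growth histories while the response of Atf3 and Dusp1 differed between the passages. Each sequence is the RefSeq promoter on GRCm38.p6, which runs from 250 bases before the annotated start to 50 bases after it. Capitals mark every match to 4 motifs searched on both strands, namely TGACTCA (the AP-1 site), TGACNTCA (the CRE and its ATF and JUN variants), GCGTG (the core of the xenobiotic response element) and the CArG box (the site of serum response factor).
Fos: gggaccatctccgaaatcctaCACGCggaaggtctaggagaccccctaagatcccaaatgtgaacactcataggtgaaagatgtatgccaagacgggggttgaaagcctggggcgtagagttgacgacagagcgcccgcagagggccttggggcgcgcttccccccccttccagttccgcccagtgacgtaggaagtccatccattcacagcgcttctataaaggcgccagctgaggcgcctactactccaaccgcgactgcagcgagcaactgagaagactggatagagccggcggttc
Jun: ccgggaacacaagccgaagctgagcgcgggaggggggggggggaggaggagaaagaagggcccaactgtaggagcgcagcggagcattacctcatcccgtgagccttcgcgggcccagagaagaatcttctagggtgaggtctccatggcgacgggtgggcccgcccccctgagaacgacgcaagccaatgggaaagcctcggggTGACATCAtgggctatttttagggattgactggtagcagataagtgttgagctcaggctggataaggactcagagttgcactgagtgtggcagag
Atf3: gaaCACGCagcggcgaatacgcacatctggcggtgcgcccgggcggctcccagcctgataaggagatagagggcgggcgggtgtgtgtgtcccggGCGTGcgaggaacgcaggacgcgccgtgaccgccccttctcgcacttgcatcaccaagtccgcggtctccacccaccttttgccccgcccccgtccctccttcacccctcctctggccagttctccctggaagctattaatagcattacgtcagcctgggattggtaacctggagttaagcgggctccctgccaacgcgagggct
Dusp1: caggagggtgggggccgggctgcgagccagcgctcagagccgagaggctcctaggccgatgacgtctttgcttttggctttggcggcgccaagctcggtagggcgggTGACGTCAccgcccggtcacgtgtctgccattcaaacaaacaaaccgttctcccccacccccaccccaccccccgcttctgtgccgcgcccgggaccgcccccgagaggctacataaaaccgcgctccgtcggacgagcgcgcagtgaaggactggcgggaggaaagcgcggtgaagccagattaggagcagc
The Fos window lies on the plus strand at chr12:85473640-85473939, and the Jun window on the minus strand at chr4:95052173-95052472. The Atf3 window lies on the minus strand at chr1:191183284-191183583, and the Dusp1 window on the minus strand at chr17:26508423-26508722. Promoters were found for 8 of the 10 members, and Fosl1 and Egr1 are named only.

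The Jun promoter held TGACATCA at position -45 and the Dusp1 promoter TGACGTCA at position -143, counted from the annotated start to the first letter of the match. Both are forms of TGACNTCA, which 8.83% of 32851 mouse promoters held. GCGTG or its reverse was found at -229 in Fos, at -247 and -155 in Atf3, and at 2 positions in Junb, and it occurred in 32.4% of all promoters. None of the 8 promoters held TGACTCA, which occurred in 5.2% of all promoters, or a CArG box as spelled here, which occurred in 1.63%. The promoters of Fosl2, Jund and Ier3 held none of the 4 motifs. These matches describe letters in the windows and not binding.

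On GRCm38 the FOS family genes are Fos (Entrez ID 14281, chr12:85473890-85477274), Fosl1 (14283, chr19:5447698-5455938) and Fosl2 (14284, chr5:32136472-32157840). The JUN family genes are Jun (16476, chr4:95049036-95052222), Junb (16477, chr8:84976909-84978748) and Jund (16478, chr8:70697739-70700616). The others are Atf3 (11910, chr1:191170296-191183333), Egr1 (13653, chr18:34861207-34864956), Dusp1 (19252, chr17:26505591-26508472) and Ier3 (15937, chr17:35821713-35822911).

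Total counts per library lay between 20976045 and 37930720. Cyp1a1, the cytochrome P450 gene that B[a]P induces through the AHR, had 930 to 2089 CPM in the B[a]P libraries, against 25.1 to 62.4 CPM in the DMSO libraries, so every library fitted its treatment label. Growth history and passage were not checked in this way. Libraries of passage 25 fell into 2 sets by replicate number. Replicate 2 of passage 25 had 14776 to 15329 genes detected and 29.6% to 34.3% of counts in its 100 most counted genes, against 16049 to 17173 genes and 15.7% to 26.0% in replicate 1. The 2 libraries of a group differed by a mean chi-square of 2.76 per gene in control-grown DMSO cells of passage 20, where counting noise alone gives about 1, and by 14.5 to 860 in the other groups. Summed levels of marker genes overlapped between the treatments. They were 2897 to 13316 CPM with B[a]P and 3769 to 11339 CPM with DMSO for 13 hepatocyte markers, 8 of them with a mean of 1 CPM or more. For other liver cells, the range was 0.0854 to 1.58 CPM with B[a]P and 0.135 to 1.33 CPM with DMSO for 5 endothelial markers, none with a mean of 1 CPM. It was 62.1 to 117.7 CPM and 57.4 to 134 CPM for 6 macrophage markers, 2 of them above that mean. It was 608 to 1542 CPM and 403 to 1503 CPM for 7 stellate cell and fibroblast markers, 5 of them with a mean of 1 CPM or more. For 5 cholangiocyte markers, 2 of them with such a mean, it was 295 to 1670 CPM and 393 to 2000 CPM.

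Per kilobase of transcript, Jund was the most abundant member and Fos the least. Median levels over the 20 libraries were 165 CPM per kb for Jund, 137 for Ier3, 71.2 for Junb and 44.2 for Fosl1. They were 26.1 CPM per kb for Dusp1, 10.9 for Atf3, 9.32 for Jun, 8.69 for Fosl2, 5.67 for Egr1 and 2.96 for Fos. These levels use the mean length of the coding transcripts, with which Jund and Ier3 held ranks 1 and 2 in every library, in either order, Junb, Fosl1 and Dusp1 ranks 3 to 5, and Atf3, Jun, Fosl2, Egr1 and Fos ranks 6 to 10. With the length of the merged exons Dusp1 ranged down to rank 6, and Atf3 and Egr1 up to rank 5. The range of each gene over the 20 libraries overlapped that of its neighbours in this order. Within each single library, however, Ier3 was above Junb and Dusp1 above Atf3 with the mean length of the coding transcripts. A single level per library covers all cells of a culture, so fewer expressing cells and less RNA per cell cannot be told apart.

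**Figure D1:**
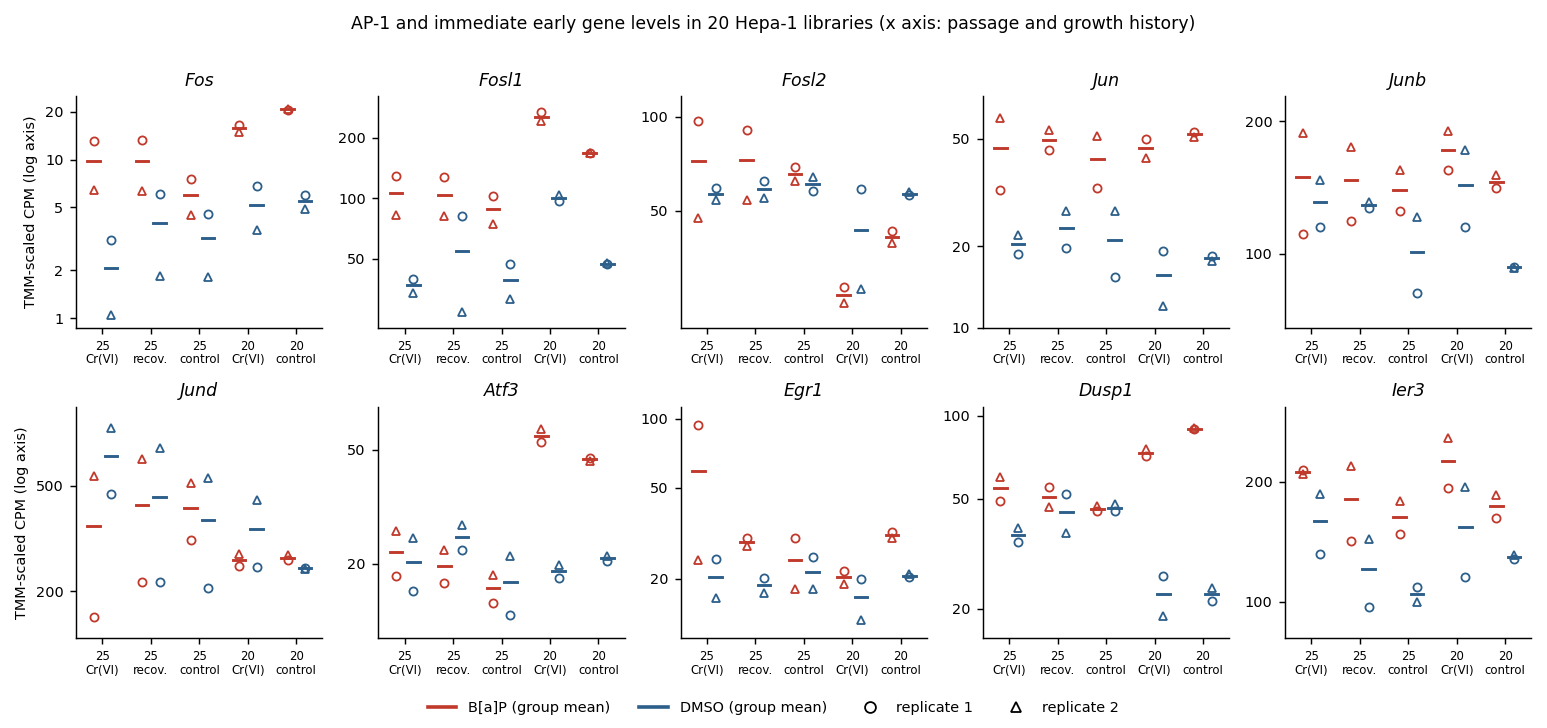
TMM-scaled CPM (log axis) of the 10 genes in each of the 20 libraries, by passage and growth history, with B[a]P in red left of DMSO in blue. Circles are replicate 1, triangles replicate 2 and lines the mean of 2 libraries. Jun is the gene whose 10 B[a]P libraries (32.4 to 59.6 CPM) all lie above its 10 DMSO libraries (12 to 27 CPM).

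B[a]P raised Fos, Fosl1, Jun and Dusp1 over the mean of all growth histories, and the other 6 members did not pass the test. The comparison set 10 B[a]P libraries against 10 DMSO libraries with edgeR's quasi-likelihood test, and 3.86% of the 14343 genes tested were higher with an adjusted p under 0.05. The members had a median log2 fold change of 0.58, and 8 of 10 were positive, beside a median of -0.00 and 49.6% positive over all genes tested. Because the members were chosen with earlier results known, these shares describe the list and do not test it. Values of single libraries below are TMM-scaled CPM, with replicate 1 before replicate 2.

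Jun encodes the most strongly activating JUN protein. In B[a]P libraries it had a lowest level of 32.4, a median of 50.3 and a highest level of 59.6 CPM. In DMSO libraries these were 12, 19.1 and 27 CPM. The 2 treatments did not overlap for Jun over the 20 libraries, which was so for 0.488% of all genes in this direction. Jun rose 2.40-fold (log2 1.26 ± 0.18 SE, adjusted p = 6.38e-04, edgeR), and its difference was positive in 10 of 10 pairs of equal growth history and replicate number, with log2 values of 0.78 to 1.81.

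The Jun response was seen in each growth history. At passage 25, Cr(VI)-grown cells had 32.4 and 59.6 CPM with B[a]P, against 18.8 and 22.1 CPM with DMSO. Recovered cells had 45.3 and 53.6 CPM with B[a]P, against 19.8 and 27 CPM with DMSO, and control-grown cells had 32.8 and 51.2 CPM, against 15.4 and 27 CPM. Levels of replicate 2 at passage 25 were above those of replicate 1 under both treatments. At passage 20, Cr(VI)-grown cells had 50.0 and 42.2 CPM with B[a]P, against 19.3 and 12 CPM with DMSO, and control-grown cells had 52.9 and 50.6 CPM, against 18.5 and 17.6 CPM.

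Fos, the prototype immediate early gene and partner of JUN, was the member with the largest fold change and the lowest level. It had a lowest level of 4.47, a median of 13.2 and a highest level of 20.9 CPM in B[a]P libraries, against 1.04, 4.07 and 6.81 CPM in DMSO libraries. The treatments overlapped over all 20 libraries but were apart within each passage and replicate number set. At passage 25 the 3 B[a]P libraries of replicate 2 had 4.47 to 6.45 CPM, against 1.04 to 1.84 CPM with DMSO, and those of replicate 1 had 7.56 to 13.3 CPM, against 3.11 to 6.11 CPM. Groups of 3 against 3 did not overlap in this direction for 15.6% of all genes in replicate 2 and for 9.31% in replicate 1. At passage 20 the 4 B[a]P libraries had 14.9 to 20.9 CPM, against 3.61 to 6.81 CPM with DMSO, and 8.41% of all genes were apart in this way. Fos rose 3.01-fold (log2 1.59 ± 0.31, adjusted p = 0.0058, edgeR), with positive log2 differences of 0.73 to 2.57 in 10 of 10 pairs.

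Fosl1 encodes FRA-1, a FOS protein without the strong activation domain of FOS that is often abundant in invasive tumour cells. Its levels were 74.7, 128 and 268 CPM (lowest, median and highest) in B[a]P libraries, against 27.2, 47.1 and 104 CPM in DMSO libraries. Fosl1 rose 2.57-fold (log2 1.36 ± 0.20, adjusted p = 9.2e-04, edgeR) and was higher in 10 of 10 pairs, by log2 0.63 to 1.84. The overlap came from the DMSO side, where Cr(VI)-grown cells of passage 20 had 96.8 and 104 CPM and 1 recovered library had 82.1 CPM. Positive differences in all 10 pairs were seen for 6.04% of all genes.

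Dusp1, whose product removes phosphate from MAP kinases, rose 1.85-fold (log2 0.89 ± 0.12, adjusted p = 5.16e-04, edgeR). It had 45.1, 57.8 and 90.0 CPM (lowest, median and highest) in B[a]P libraries, against 18.8, 36.3 and 52.3 CPM in DMSO libraries. The mean hides a split by passage, which is described further on. The 4 rises also passed with each of the 20 libraries left out in turn.

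Of the remaining members, Ier3, which encodes a stress-induced regulator of survival, had 142 to 258 CPM with B[a]P, against 97.1 to 194 CPM with DMSO (log2 0.52 ± 0.15, adjusted p = 0.0563). Egr1, an early factor downstream of serum response factor, had 18.1 to 94.4 CPM, against 13.2 to 24.9 CPM (log2 0.65 ± 0.22, adjusted p = 0.11). Both were higher with B[a]P in 10 of 10 pairs, but for Egr1 the lowest pair difference was log2 0.01. Junb, a JUN protein that activates weakly and can hold JUN in check, had a log2 fold change of 0.35 ± 0.15 (adjusted p = 0.222), and Atf3, a stress-induced bZIP factor that mostly represses, one of 0.49 ± 0.15 (adjusted p = 0.0622). Fosl2 (log2 -0.08 ± 0.18, adjusted p = 0.945) and Jund (log2 -0.22 ± 0.32, adjusted p = 0.886) encode FRA-2 and the JUN protein of resting cells. Both were higher in 3 of 10 pairs, counted on log2 differences rounded to 2 decimals. For Jund, 248 CPM with B[a]P against 247 CPM with DMSO rounded to 0.0 and was not counted. That pair was replicate 1 of Cr(VI)-grown cells at passage 20.

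With the replicate number as a block (replicate block), 8 of 10 members rose, where 14.1% of all genes did and 14.1% fell. The 4 additional members were Atf3 (adjusted p = 3.57e-04), Ier3 (0.00152), Egr1 (0.00755) and Junb (0.0105), all by edgeR. The replicate numbers paired the libraries at passage 25 but not clearly at passage 20, so the values without the block are given first throughout. That reason does not hold for comparisons within passage 25 alone, such as recovered cells, where the values without the block ignore this pairing.

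**Figure D2:**
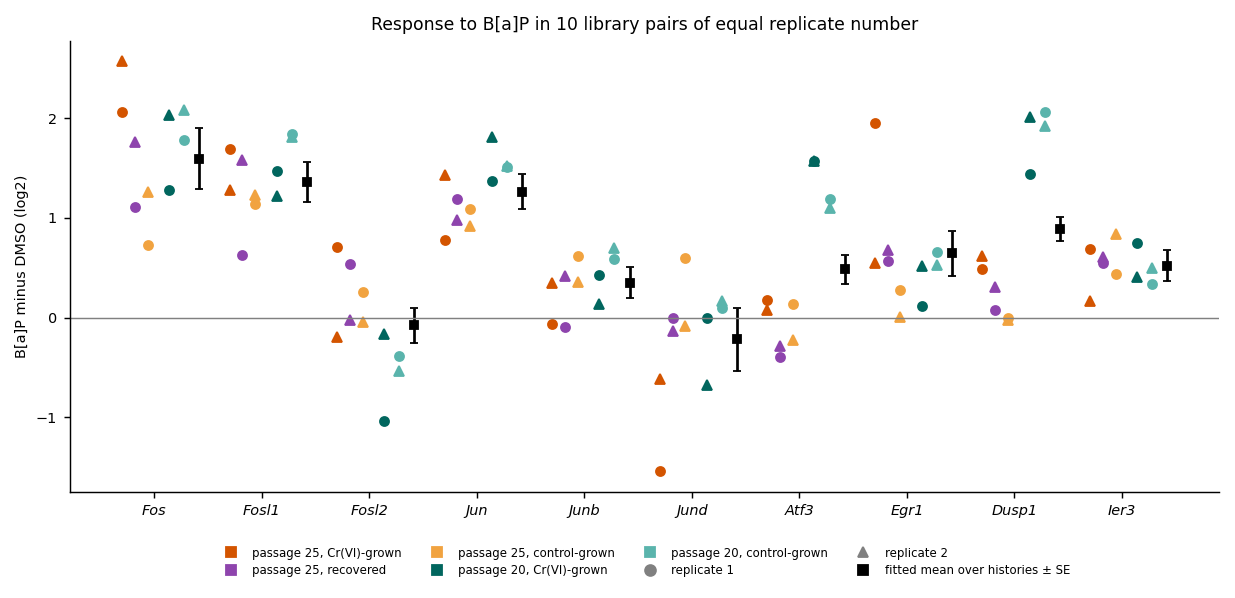
Log2 difference between B[a]P and DMSO for the 10 genes in 10 pairs of libraries with equal growth history and replicate number. Colours mark passage and growth history, circles replicate 1 and triangles replicate 2, and black squares with bars are the fitted mean over all histories with its SE. All pairs of Fos (0.73 to 2.57), Fosl1 and Jun lie above 0, while Atf3 and Dusp1 are high in the pairs of passage 20.

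Taken by growth history, B[a]P raised Jun and Dusp1 in Cr(VI)-grown cells and Fosl1, Jun and Dusp1 in control-grown cells, over the mean of both passages. In Cr(VI)-grown cells, where 0.481% of all genes rose, Jun was 2.57-fold (log2 1.36 ± 0.28, adjusted p = 0.0379) and Dusp1 2.19-fold higher (log2 1.13 ± 0.19, adjusted p = 0.0152). Fosl1 (log2 1.43 ± 0.32, adjusted p = 0.055) and Fos (log2 1.91 ± 0.49, adjusted p = 0.11) did not pass there. In control-grown cells, where 0.934% of all genes rose, Fosl1 was 2.83-fold (log2 1.50 ± 0.32, adjusted p = 0.0276), Jun 2.38-fold (log2 1.25 ± 0.28, adjusted p = 0.0348) and Dusp1 1.99-fold higher (log2 0.99 ± 0.19, adjusted p = 0.0155). Fos had a log2 fold change of 1.42 ± 0.48 (adjusted p = 0.201, edgeR). The Dusp1 mean of control-grown cells describes neither passage. Its pair differences were log2 2.06 and 1.92 at passage 20, against 0.0 and -0.02 at passage 25.

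In recovered cells, which were sampled at passage 25 only, no member passed without the block and 0.0488% of all genes rose. Fos had a log2 fold change of 1.30 ± 0.68 and Jun of 1.08 ± 0.39 there, with 13.3 and 6.37 CPM of Fos with B[a]P, against 6.11 and 1.84 CPM with DMSO. These calls by history are less firm than the mean over histories. With 1 of the 8 libraries left out, 0 to 2 members passed in Cr(VI)-grown cells and 0 to 1 in control-grown cells. With the replicate block, 6 members rose and Jund fell (log2 -0.72 ± 0.20, adjusted p = 0.0347) in Cr(VI)-grown cells (5.47% of all genes fell), 7 rose in control-grown cells, and Fos (adjusted p = 0.0264) and Jun (adjusted p = 0.0234) rose in recovered cells. The shares of all genes that rose with the block were 5.82%, 7.57% and 0.809% for these histories in the same order.

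Egr1 had its highest level in 1 library. Replicate 1 of Cr(VI)-grown cells with B[a]P at passage 25 had 94.4 CPM, against 24.1 CPM in replicate 2 of that group, and 24.3 and 16.5 CPM with DMSO. All other libraries had between 13.2 and 32.1 CPM of Egr1. The log2 fold change of Egr1 in Cr(VI)-grown cells was 0.91 ± 0.35 (adjusted p = 0.387), and it was 0.26 without that library.

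Atf3 and Dusp1 were high with B[a]P at passage 20 and within or near their DMSO range at passage 25. For Dusp1, B[a]P libraries of passage 25 had 45.1, 48.0 and 60.2 CPM (lowest, median and highest), against 34.9, 42.1 and 52.3 CPM with DMSO. At passage 20 Cr(VI)-grown cells had 71.5 and 75.6 CPM with B[a]P, against 26.3 and 18.8 CPM with DMSO, and control-grown cells had 89.8 and 90.0 CPM, against 21.4 and 23.7 CPM. The treatments overlapped at passage 25 and did not at passage 20. By history at passage 25, control-grown cells had 45.1 and 47.0 CPM with B[a]P, against 45.1 and 47.9 CPM with DMSO. Cr(VI)-grown cells had 49.0 and 60.2 CPM, against 34.9 and 39.2 CPM, and recovered cells 55.4 and 46.6 CPM, against 52.3 and 37.7 CPM. The DMSO libraries of the passages were themselves apart, with 34.9 CPM as the lowest of passage 25 and 26.3 CPM as the highest of passage 20, as were those of 4.18% of all genes in this direction.

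For Atf3, B[a]P libraries of passage 25 had 14.6, 18.1 and 26.0 CPM (lowest, median and highest), against 13.2, 21.9 and 27.2 CPM with DMSO. At passage 20 Cr(VI)-grown cells had 53.0 and 58.9 CPM with B[a]P, against 17.9 and 19.8 CPM with DMSO, and control-grown cells had 46.9 and 45.7 CPM, against 20.5 and 21.3 CPM. Here the DMSO levels of the passages overlapped and the B[a]P levels were apart, lower at passage 25, as were those of 7.79% of all genes. The B[a]P levels of Fos, Fosl1 and Dusp1 were apart and lower at passage 25 too. Those of Fosl2 were apart and higher, a direction whose share of all genes is not given here.

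Over Cr(VI)-grown and control-grown cells, the response at passage 25 minus that at passage 20 was log2 -1.58 ± 0.27 for Dusp1 and -1.34 ± 0.33 for Atf3. Neither passed without the block (edgeR, adjusted p = 0.173 for Dusp1 and 0.869 for Atf3), where 0.0% of genes did and 314 had a p under 0.05 before adjustment. Both passed with the replicate block (adjusted p = 0.0116 each), as did 0.0349% of all genes in this direction, and DESeq2 gave adjusted p-values of 9.58e-09 for Dusp1 and 0.0494 for Atf3. The other 8 members had differences between -0.46 ± 0.39 for Jun and 0.81 ± 0.39 for Fosl2, and none of them passed with or without the block. All libraries of a passage belong to 1 set, so passage and library set cannot be told apart. Taken alone at passage 20, the Dusp1 effect in control-grown cells passed (3.98-fold, log2 1.99 ± 0.28, adjusted p = 0.00649, edgeR), where 0.516% of all genes rose.

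Members also differed between the replicate sets of passage 25 without regard to treatment. Jund was higher in replicate 2 than in replicate 1 in 6 of 6 groups, by a median of log2 1.46, and Jun, Junb and Atf3 were higher by medians of 0.54, 0.45 and 0.45. Fos, Fosl1 and Egr1 were lower in replicate 2 in 6 of 6 groups, with medians of -1.17, -0.60 and -0.51. Dusp1 differed little, with a median of 0.07. At passage 20 the medians for these 8 genes lay between -0.22 and 0.20. The part of these library sets in the members' results was not tested beyond the replicate block and the libraries left out.

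Growth with Cr(VI) alone moved no member past the test. Under B[a]P the differences between Cr(VI)-grown and control-grown cells were between log2 -0.24 ± 0.28 for Fosl2 and 0.42 ± 0.31 for Fosl1. With DMSO they were between -0.34 ± 0.48 for Fos and 0.65 ± 0.50 for Jund. In both comparisons edgeR called 0.0% of all genes, while 523 genes under B[a]P and 685 with DMSO had an unadjusted p under 0.05, none of them a member. With the replicate block and with DESeq2 no member passed in either comparison, while 3.7% of all genes did with the block and DMSO.

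Fosl1 was higher in Cr(VI)-grown than in control-grown cells at passage 20 under both treatments, without passing the test. Under B[a]P it had 268 and 242 CPM in Cr(VI)-grown cells, against 169 and 168 CPM in control-grown cells. With DMSO it had 96.8 and 104 CPM, against 47.1 and 47.7 CPM. Both treatments were thus apart at passage 20, where 30.2% of genes under B[a]P and 24.0% with DMSO were apart in this direction. Junb was apart and higher under both treatments too. Under B[a]P, Atf3 and Ier3 were also higher, while Fos, Fosl2, Jun, Egr1 and Dusp1 were apart and lower. With DMSO, Jund was also higher, while Atf3 and Egr1 were apart and lower. The share of all genes apart and lower is not given here. For Fosl1 the DMSO difference was 2.11-fold (log2 1.08 ± 0.44, adjusted p = 0.72, edgeR), and it passed with the replicate block (adjusted p = 0.0402), as did 1.46% of all genes. At passage 25 Fosl1 had 39.9 and 34.0 CPM in Cr(VI)-grown DMSO cells, against 47.0 and 31.7 CPM in control-grown DMSO cells, and these overlapped. Of the pairs of passage 20, the 2 Cr(VI)-grown DMSO libraries differed most from each other (mean chi-square 395 per gene), and replicate 2 had the highest Jund level of that passage (440 CPM) and the lowest Fosl2 level with DMSO (28.2 CPM).

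Recovered cells had no member past the test either. Under B[a]P their differences from control-grown cells at passage 25 were between log2 0.05 ± 0.71 for Jund and 0.71 ± 0.67 for Fos. With DMSO they were between -0.20 ± 0.50 for Egr1 and 0.53 ± 0.33 for Atf3. Atf3 had 22.4 and 27.2 CPM in recovered DMSO cells, against 13.2 and 21.3 CPM in control-grown DMSO cells, which was one of the 5.45% of genes apart in this direction. edgeR called 0.0% of genes in both comparisons and DESeq2 called no member, with 142 genes under B[a]P and 146 with DMSO at an unadjusted p under 0.05. Recovered and Cr(VI)-grown cells of passage 25 were compared with the same control-grown libraries, so these values are not independent of those for Cr(VI) growth.

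**Figure D3:**
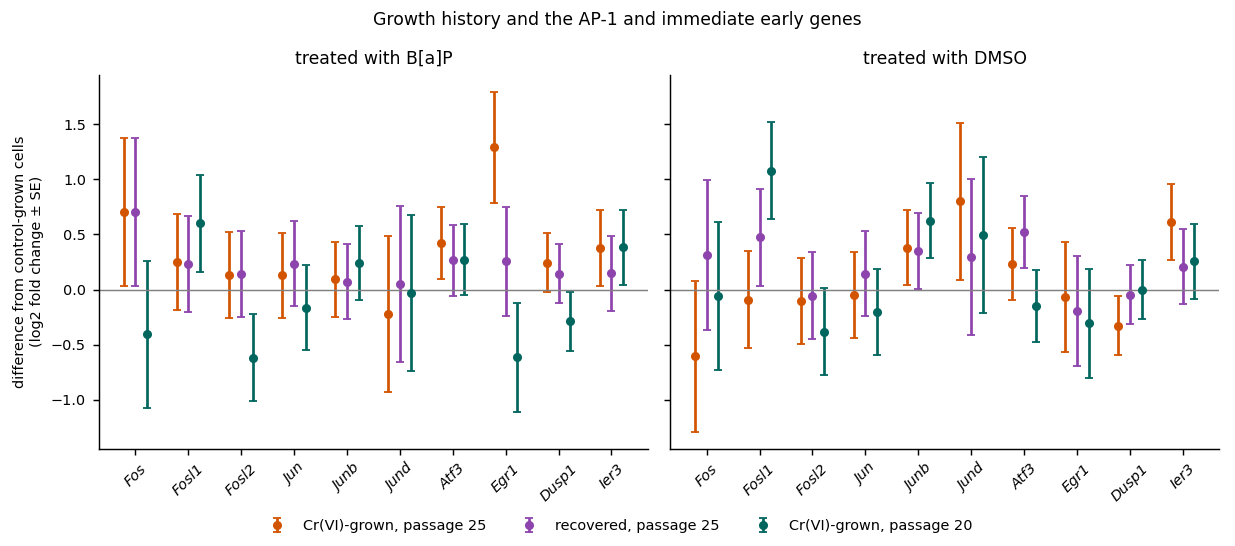
Log2 fold change with its SE of the 10 genes between cells of a growth history and control-grown cells of the same passage, after B[a]P (left) and after DMSO (right). Orange is Cr(VI)-grown at passage 25, purple recovered at passage 25 and green Cr(VI)-grown at passage 20. No value passed the test without the block, and the 2 highest values are Egr1 under B[a]P at passage 25 (1.29 ± 0.50), which rests on the 1 library with 94.4 CPM, and Fosl1 with DMSO at passage 20 (1.08 ± 0.44).

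Whether growth history changed the response to B[a]P was tested as an interaction. For Cr(VI) growth the interaction of the members was between log2 -0.77 ± 0.71 for Jund and 0.53 ± 0.50 for Egr1, and that of Jun was 0.11 ± 0.39. The Egr1 value turned to -0.12 without the Cr(VI)-grown library of passage 25 that had 94.4 CPM. For recovered growth it was between -0.28 ± 0.48 for Junb and 0.45 ± 0.70 for Egr1. No member and 0.0% of all genes passed with or without the replicate block, and 60 and 30 genes had an unadjusted p under 0.05. For Fos the first of these was 0.49 ± 0.67, an SE larger than the estimate.

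Cells with both exposures were also set against cells with neither, over the mean of both passages. In this comparison 5 members rose, where 3.14% of all genes did. Fosl1 rose 3.80-fold (log2 1.93 ± 0.32, adjusted p = 0.00428), Dusp1 1.96-fold (log2 0.97 ± 0.19, adjusted p = 0.00949) and Jun 2.35-fold (log2 1.24 ± 0.28, adjusted p = 0.0205). Atf3 rose 1.85-fold (log2 0.89 ± 0.23, adjusted p = 0.0419) and Ier3 1.88-fold (log2 0.91 ± 0.24, adjusted p = 0.0457), all by edgeR.

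Ier3 and Atf3 passed here, but neither B[a]P in control-grown cells nor Cr(VI) growth with DMSO moved them past the test, which is no test of a difference between these comparisons. With 1 of the 8 libraries left out, Ier3 passed in 0 of 8 fits (adjusted p 0.0766 to 0.178, edgeR) and Atf3 in 2 of 8 (0.0335 to 0.171), while Jun passed in 3, Dusp1 in 6 and Fosl1 in all 8. Ier3 and Atf3 also missed the threshold with RLE scaling (0.0589 and 0.0521), without the filter (0.1 and 0.103) and with only the groups compared (0.0955 and 0.151). At passage 25 Ier3 had 214 and 210 CPM in Cr(VI)-grown cells with B[a]P, against 109 and 99.8 CPM in control-grown DMSO cells. At passage 20 it had 193 and 258 CPM, against 128 and 131 CPM. The 4 libraries with both exposures were above the 4 with neither, as was so for 4.79% of all genes. For Fosl1 the combined comparison was 5.38-fold at passage 20 alone (log2 2.43 ± 0.46, adjusted p = 0.014, 1.8% of genes higher) and 2.68-fold at passage 25 alone (log2 1.42 ± 0.45, adjusted p = 0.396), where it passed with the replicate block (adjusted p = 0.00644), as did 2.95% of all genes in this direction. Between 1 and 4 of the 10 members passed when 1 of the 8 libraries was left out. Calls of this comparison share libraries with those for B[a]P and for Cr(VI) growth.

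In the make-up of the FOS and JUN mRNA pools, only the share of Jun was apart between B[a]P and DMSO. Per kilobase, Jun made up 3.41% to 6.77% of the summed Jun, Junb and Jund level in B[a]P libraries (median 5.34%), against 1.04% to 3.02% in DMSO libraries (median 2.43%). These ranges did not overlap, and they rest on the Jun level whose ranges are given above. Jund, the largest share, had a median of 62.4% with B[a]P and 72.3% with DMSO, and Junb one of 31.2% and 25.3%. The FOS pool here summed Fos, Fosl1 and Fosl2 and left out Fosb, which is not a member. In this pool Fosl1 was the largest share, with a median of 80.4% in B[a]P libraries and 69.3% in DMSO libraries. Fosl2 had medians of 14.2% and 24.2%, and Fos of 5.54% and 4.82%. The ranges of all 3 FOS genes overlapped between the treatments. Shares of mRNA say nothing of protein amounts or pairs.

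**Figure D4:**
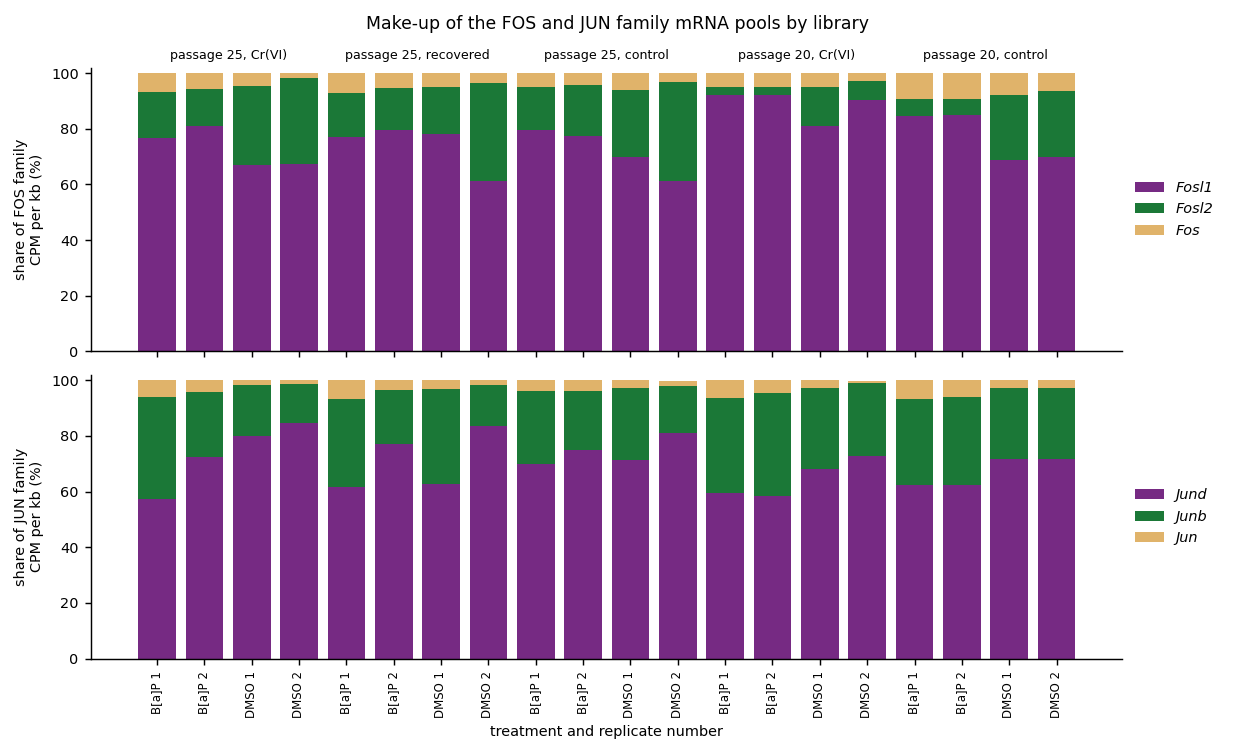
Share of each gene in the summed FOS family level (Fosl1, Fosl2, Fos, upper panel) and JUN family level (Jund, Junb, Jun, lower panel) of each library, in percent of CPM per kb. Libraries are ordered by passage and growth history, with the 2 B[a]P libraries left of the 2 DMSO libraries. Fosl1 and Jund are the largest shares in every library, and the Jun share is 3.41% to 6.77% with B[a]P and 1.04% to 3.02% with DMSO.

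Among the members, Fos and Jun varied most alike over the 20 libraries after the mean of each passage and replicate set was removed (Pearson r = 0.95). Atf3 and Dusp1 followed (r = 0.872), then Fos with Fosl1 (r = 0.855) and Fosl1 with Jun (r = 0.845). The most opposed pair was Fosl2 with Junb (r = -0.619). These values describe libraries that share treatments and library sets, so B[a]P alone makes genes that respond to it alike. Among 9965 other genes with a mean of at least 5 CPM, the most like Fos were Tmem230 (r = 0.967) and Adh7 (r = 0.966), and the most like Jun were Adh7 (r = 0.967) and the sulfiredoxin gene Srxn1 (r = 0.963). The most like Fosl1 were Csrnp2 (r = 0.975) and Brd2 (r = 0.973), and Mllt11 (r = 0.916) was the most like Dusp1. The genes most like Atf3 were Ttc4 (r = 0.870) and Slc25a25 (r = 0.848), those most like Jund Cldn3 (r = 0.969) and Plpp2 (r = 0.967), and those most like Junb Zfp296 (r = 0.957) and Ypel3 (r = 0.950). Fosl2 was most like Zfp697 (r = 0.946) and Mtr (r = 0.935), Egr1 most like Nlgn2 (r = 0.919) and Gripap1 (r = 0.905), and Ier3 most like Cd68 (r = 0.915) and Ap4m1 (r = 0.899).

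Wider lists of the pathway were read in the same comparison of B[a]P with DMSO over all growth histories, in which 3.86% of all 14343 genes tested rose and 3.74% fell, and the counts of each list stand against these shares. The lists too were chosen with earlier results of these data known, so their counts are no test of a list. Of 14 other AP-1 and ATF bZIP genes tested, 3 rose, 0 fell and 11 did not pass, with a median log2 fold change of 0.11. The 3 were the small MAF genes Maff (log2 1.04 ± 0.17, adjusted p = 0.00183) and Mafk (0.85 ± 0.12, 8.32e-04), whose products pair with NRF2, and the fourth FOS family gene Fosb (0.91 ± 0.25, 0.0387). Of 32 other immediate early genes, 4 rose, 2 fell and 26 did not pass, with a median of 0.17. Those that rose were Btg2, an antiproliferative p53 target (5.07-fold), Zfp36, which encodes the mRNA-destabilising protein tristetraprolin (2.47-fold), Gadd45b, a stress sensor gene (2.38-fold), and the polo-like kinase gene Plk2 (2.24-fold). Myc (log2 -0.64 ± 0.14, adjusted p = 0.012) and the matricellular gene Ccn2 (log2 -0.53 ± 0.12, adjusted p = 0.0192) fell.

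Around the kinases, 1 of 13 MAP kinase feedback genes rose, and this was Spry4 (log2 0.86 ± 0.14, adjusted p = 0.00172), an inhibitor of receptor signalling to MAP kinases. Their median was 0.11. Of 27 genes for serum response factor, its cofactors and the MAP kinases, 0 rose and 2 fell, with a median of -0.05. These were Map3k5 (log2 -1.54 ± 0.31, adjusted p = 0.00787), which encodes the stress kinase ASK1, and Mrtfa (log2 -0.89 ± 0.21, adjusted p = 0.0192), a cofactor of serum response factor. Map3k5 was lower with B[a]P in 10 of 10 pairs.

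Of 25 genes known as AP-1 targets, 8 rose, 1 fell and 16 did not pass, with a median of 0.22. Nqo1 (12.8-fold, adjusted p = 3.2e-08), Hmox1 (7.50-fold, adjusted p = 2.27e-05) and Txnrd1 (log2 1.00 ± 0.17) rose, and these antioxidant genes are targets of NRF2, and Nqo1 of the AHR, as well as of AP-1. The growth factor and cytokine genes Vegfa (2.87-fold, adjusted p = 0.0308) and Lif (2.27-fold, adjusted p = 0.00837), the urokinase receptor gene Plaur (log2 0.86 ± 0.15) and the prostaglandin synthase gene Ptgs2 (7.25-fold, adjusted p = 0.0385) rose too. For Ptgs2 and Vegfa the call was lost in 16 and 13 of the 20 fits that each left out 1 library, with adjusted p up to 0.108 and 0.0766. The cyclin D1 gene Ccnd1 fell (log2 -0.60 ± 0.13, adjusted p = 0.0106). Fosb, Mafk, Spry4, Mrtfa, Myc, Ccn2, Txnrd1, Plaur and Ccnd1 lie outside the 12 largest changes that the naming rule took and were named after their values were seen.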

How the data were processed

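Total RNA of 20 Hepa-1 samples was purified on spin columns and sequenced with Illumina libraries, per the labels' protocols. The deposited file is a table of raw counts, in which each library has a column and each Entrez gene ID a row. CASAVA 1.8, bcl2fastq, TopHat, DESeq and the build mm10 stand in the submitters' processing notes. What counted the reads, with which annotation and strand setting, is not given in the sources used here, so reads of genes that overlap a member cannot be told apart from its own. Symbols for 23275 of 23373 IDs, coordinates and promoters came from RefSeq tables of GRCm38.p6.

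The test was the quasi-likelihood test of edgeR 4.0.16 under R 4.3.3 (filterByExpr, TMM scaling, quasi-likelihood fit with 1 mean per group over all 20 libraries, 10 residual degrees of freedom). Tests were two-sided, and p-values were adjusted by the Benjamini-Hochberg method over the 14343 genes tested, with a threshold of 0.05. The SE of a log2 fold change is its size divided by the square root of F. CPM used TMM-scaled library sizes, and levels per kb used the mean coding transcript length. DESeq2 1.42.0, RLE scaling, no filter, fits of only the groups compared and each library left out were alternatives. The scripts were tested on simulated data. Labels do not say whether the 2 libraries of a group came from separate cultures, so the p-values reflect spread among libraries that may be technical only. Counting error is small at these depths beside that spread, except in control-grown DMSO cells of passage 20 (mean chi-square 2.76 per gene). It weighs more for Fos, which had 32, 17 and 41 counts in control-grown, Cr(VI)-grown and recovered DMSO libraries of replicate 2 at passage 25.

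Replicate differences of the groups were correlated over genes to check the replicate numbers. The 15 correlations at passage 25 were 0.81 to 0.92, so the numbers pair those libraries. At passage 20 the 6 were 0 to 0.59, with a median of 0.2. A fit with the replicate number within passage as a block (8 residual degrees of freedom) is therefore given where it changes a call. Common dispersion was 0.228 without and 0.0453 with it. Titles of the later samples have 27 where their passage label has 25, which was used.

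The members and lists were chosen with earlier results of these data known. Text names all 10 members, list genes past the threshold for B[a]P over all histories (at most 12, by size), and the 2 genes most like each member. A few genes that this rule takes are not reported here.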

Additional observations from a re-analysis of the deposited data

Results flagged for a closer look

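The response of 2 members to B[a]P differed between the passages. For Dusp1 the effect at passage 25 minus that at passage 20 was log2 -1.58 ± 0.27, with an adjusted p of 0.173 by edgeR without the replicate block and 0.0116 with it. For Atf3 it was log2 -1.34 ± 0.33, with an adjusted p of 0.869 without the replicate block and 0.0116 with it. At passage 25 the pair differences of Dusp1 lay between -0.02 and 0.62 and those of Atf3 between -0.39 and 0.18, and at passage 20 between 1.44 and 2.06 and between 1.10 and 1.57. Passage and library set cannot be told apart.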

How the results depend on the processing

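No member changed direction among its calls under any alternative run. Shares in brackets are of all genes, in either direction unless marked higher. No share is given for the fits with 1 library left out. For B[a]P over all growth histories 4 members passed (3.86% higher). With DESeq2 7 passed (12.5%), with the replicate block 8 (28.3%), and with 1 library left out 4 to 5. In control-grown cells 3 passed (0.934% higher), and 1 without the filter on low counts (0.883%). With the replicate block 7 passed there (16.7%), and 0 to 1 with 1 library left out. In Cr(VI)-grown cells 2 passed (0.481% higher), 0 without the filter (0.347%) and 0 when only the groups compared were fitted (0.0143%). There 5 passed with DESeq2 (3.3%), 7 with the replicate block (11.3%) and 0 to 2 with 1 library left out. In recovered cells 0 passed (0.0488% higher), and 2 with the replicate block (1.5%). For both exposures against neither 5 passed (3.14% higher), 3 with RLE scaling (5.69%), 3 without the filter (2.82%) and 1 with only the groups compared (1.07%). In this comparison 6 passed with DESeq2 (10.9%), 7 with the replicate block (29%), and 1 to 4 with 1 library left out. For the passage difference of the B[a]P effect 0 passed (0.0%), and 2 each with DESeq2 (0.181%) and with the replicate block (0.265%).

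Alternatives added after seeing the data left out libraries that stood apart. Without the 6 replicate 2 libraries of passage 25, 6 members passed over all histories, where 14.4% of all genes did in either direction, 5 in control-grown (7.12%), 6 in Cr(VI)-grown (5.23%) and 0 in recovered cells (0.0271%), 6 for both exposures (14.1%) and 0 for the passage difference (0%). Without these and replicate 2 of Cr(VI)-grown DMSO cells at passage 20, 9 passed over all histories (44.7% of all genes), 9 in control-grown (44%), 8 in Cr(VI)-grown (37.9%) and 5 in recovered cells (10.4%), 8 for both exposures (49.7%) and 6 for the passage difference (44.9%). In that fit 5 members passed for Cr(VI) growth under B[a]P (30.6%) and 3 with DMSO (21.7%), 2 and 3 for recovered cells under B[a]P (31.6%) and with DMSO (7.84%), and 2 for the interaction with Cr(VI) (27.3%). The spread of the first fit came from the pairs of passage 20 alone, and that of the second from 3 of them. Both fits left 1 library in each group of passage 25, which was assumed to vary like those pairs. The calls of neither fit are therefore a firmer test. For Cr(VI) growth, recovered growth and both interactions, taken over all passages sampled, the replicate block left the count at 0. Within passage 20 it gave 6 members (13.4% of all genes) against 1 when control-grown cells received B[a]P. It gave 5 (3.05%) against 0 when Cr(VI)-grown cells did, and 8 (29.3%, 1 member lower) against 3 for both exposures. For Cr(VI) growth with DMSO it gave 1 (2.89%) against 0. Within passage 25 it gave 2 (2.71%), 5 (5.45%, 1 member lower) and 5 (5.58%) against 0 for the first 3 of these. These shares are those with the block, in either direction. Calls in the wider lists, beside 28.3% of all genes with the block and 3.86% higher plus 3.74% lower without it, were 19 with the replicate block, against 6 without it, for other immediate early genes, 6 against 3 for bZIP genes, 3 against 1 for feedback genes and 12 against 2 for serum response factor and MAP kinases. The causes of these moves were not tested. The 2 libraries of each group limit the precision more than depth does.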
